A study of Homo sapiens with 6 samples.

Results

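The genes described here encode the mitochondrial ribosomal proteins. They were chosen by name, as every protein-coding gene of the count and TPM tables whose symbol begins with MRPL or MRPS followed by a digit. This gave 78 of 57914 genes, and all 78 were abundant enough to be tested among 17047 genes. By the standard nomenclature 51 of them belong to the large subunit, 26 to the small subunit and 1, MRPS36, to no ribosome, since its product (KGD4) is now known as a part of the 2-oxoglutarate dehydrogenase complex. The symbol can mislead: MRPS30 (mL65) and MRPS18A (mL66) carry small-subunit symbols but sit in the large subunit.

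RNA came from A375, 1 established human melanoma cell line, stained with Aldefluor, a substrate that aldehyde dehydrogenases (ALDH) turn into a retained fluorescent product. The ALDH_High group (3 libraries) held the cells in the brightest 5% and the ALDH_Low group (3 libraries) those in the dimmest 5%, so both groups were stained and sorted and neither was left unsorted. The labels name no other agent or genotype, and do not say that libraries came from separate cultures, so p-values measure the spread between these libraries only. The comparison asks which transcripts differ between the extremes of ALDH activity.

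Mitochondrial ribosomes translate the few proteins that mitochondrial DNA encodes, all of them membrane subunits of the respiratory chain and ATP synthase. Their ribosomal RNA is encoded in mitochondrial DNA, but every protein of both subunits is encoded in the nucleus, made in the cytosol and imported. The small subunit binds the mRNA and decodes it, and the large subunit forms the peptide bond and anchors the exit tunnel at the inner membrane. Many of the proteins have bacterial counterparts (named uL, bL, uS or bS), and the others (mL, mS) are named as specific to mitochondria.

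Total counts per library lay between 26692868 and 37830603, and the lowest count of any member in any library was 438, which keeps the relative counting error of each value low. ALDH1A3, an aldehyde dehydrogenase, served as a check of the sort and was 279, 519 and 504 TPM in the ALDH_High libraries against 149, 182 and 165 TPM in the ALDH_Low libraries (TPM is the deposited abundance, corrected for transcript length and library size). Of 10 melanoma markers, 6 (SOX10, MITF, S100B, S100A1, CSPG4 and MCAM) reached 1 TPM in every library, with a summed marker level of 879 to 996 TPM in ALDH_High and 333 to 363 TPM in ALDH_Low, while PMEL, MLANA, TYR and DCT did not. None of 7 white blood cell, 3 endothelial and 3 epithelial markers reached 1 TPM in every library. The epithelial markers summed to 0.393 to 0.444 TPM in ALDH_High and to more in ALDH_Low, 1.31 to 3.695 TPM. For the endothelial markers the sums were 0.20 to 0.50 and 0.21 to 0.51 TPM. The white blood cell markers summed to 3.62 to 7.90 TPM in ALDH_High and 1.94 to 3.003 TPM in ALDH_Low, with MS4A1 at 0. For 5 fibroblast markers, of which COL1A1, PDGFRB and LUM reached 1 TPM everywhere, the sums were 10.0 to 13.4 and 8.99 to 10.5 TPM, and the part of these markers in the results below was not tested. These are bulk samples, in which a smaller share of expressing cells and less RNA per cell cannot be told apart.

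Start-site sequences are shown for 3 members whose RNA passed the test, because they differ in make-up and in the direction of the RNA difference. MRPS30 and MRPS6 were higher in ALDH_High and MRPS21 was lower. The sequences come from RefSeq (GRCh38.p14), run 5′ to 3′ on the gene's own strand, and hold no base of the gene's own annotated exons (GENCODE 44). Capitals mark matches to the short motifs searched: CCAAT (for MRPS30 and MRPS21, as its reverse complement), GGGCGG (the SP1 motif) and CCGGAAG (an ETS motif). The stretches are chr5:44808697-44808946 (forward strand) for MRPS30, chr21:34073328-34073548 (forward strand) for MRPS6 and chr1:150293611-150293860 (forward strand) for MRPS21.
MRPS30: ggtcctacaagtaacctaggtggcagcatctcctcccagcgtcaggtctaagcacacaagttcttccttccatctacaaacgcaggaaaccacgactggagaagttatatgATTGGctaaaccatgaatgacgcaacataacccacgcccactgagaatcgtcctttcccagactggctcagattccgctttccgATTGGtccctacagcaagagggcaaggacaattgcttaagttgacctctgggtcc
MRPS6: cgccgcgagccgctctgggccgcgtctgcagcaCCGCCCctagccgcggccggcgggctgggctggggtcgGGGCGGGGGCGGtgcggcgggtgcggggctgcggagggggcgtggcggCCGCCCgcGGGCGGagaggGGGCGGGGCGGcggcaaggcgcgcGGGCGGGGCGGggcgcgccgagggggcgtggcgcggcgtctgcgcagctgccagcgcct
MRPS21: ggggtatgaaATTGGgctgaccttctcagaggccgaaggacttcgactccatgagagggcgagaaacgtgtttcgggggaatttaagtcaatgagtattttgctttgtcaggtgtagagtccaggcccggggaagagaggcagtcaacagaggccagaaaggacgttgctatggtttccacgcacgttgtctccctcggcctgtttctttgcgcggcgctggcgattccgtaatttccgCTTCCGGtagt
The MRPS6 stretch was 86.9% G and C and held GGGCGG on either strand 9 times, against 50.4% and 54.0% G and C in the MRPS30 and MRPS21 stretches, which held none. MRPS30 held CCAAT in reverse complement at 2 places, starting 139 and 55 bases before the start site, and MRPS21 held the ETS motif 11 bases before its start site. The RefSeq start of MRPS6 lies 354 bases inside the GENCODE 44 gene and is also the annotated start of SLC5A3.

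Most mitochondrial ribosomal protein transcripts differed little between the groups. With edgeR's quasi-likelihood test and an adjusted p below 0.05 (Benjamini-Hochberg over all genes tested), 5 of 78 members passed (6.41%), against 20.6% of all genes tested. That gap varied with the test and with the set of genes it covered, while all 78 members were tested each time. Limma on log2(TPM + 1) with a filter on TPM called 8.97% of members and 16.15% of 15146 genes. Without that filter limma called 6.41% of members and 5.76% of 34849 genes. EdgeR without a filter on low counts called 6.41% of members and 12.9% of 34665 genes. MRPS6, MRPS30 and MRPL36 were higher in ALDH_High (3 members, with 10.8% of all genes called higher), and MRPS21 and MRPS16 were lower (2 members, with 9.83% of all genes called lower). Members are abundant genes, and among protein-coding genes within the members' range of mean CPM (20.3 to 199; CPM are counts scaled to library size) 1218 of 6499 passed (18.7%). The median size of the log2 fold change, whatever its sign, was 0.12 for the members, 0.18 for protein-coding genes in that range and 0.28 for all genes tested. For 57 of the 78 members the 95% interval of the log2 fold change lay within 0.5 on either side of 0, and for 76 it lay within 1.

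**Figure D1:**
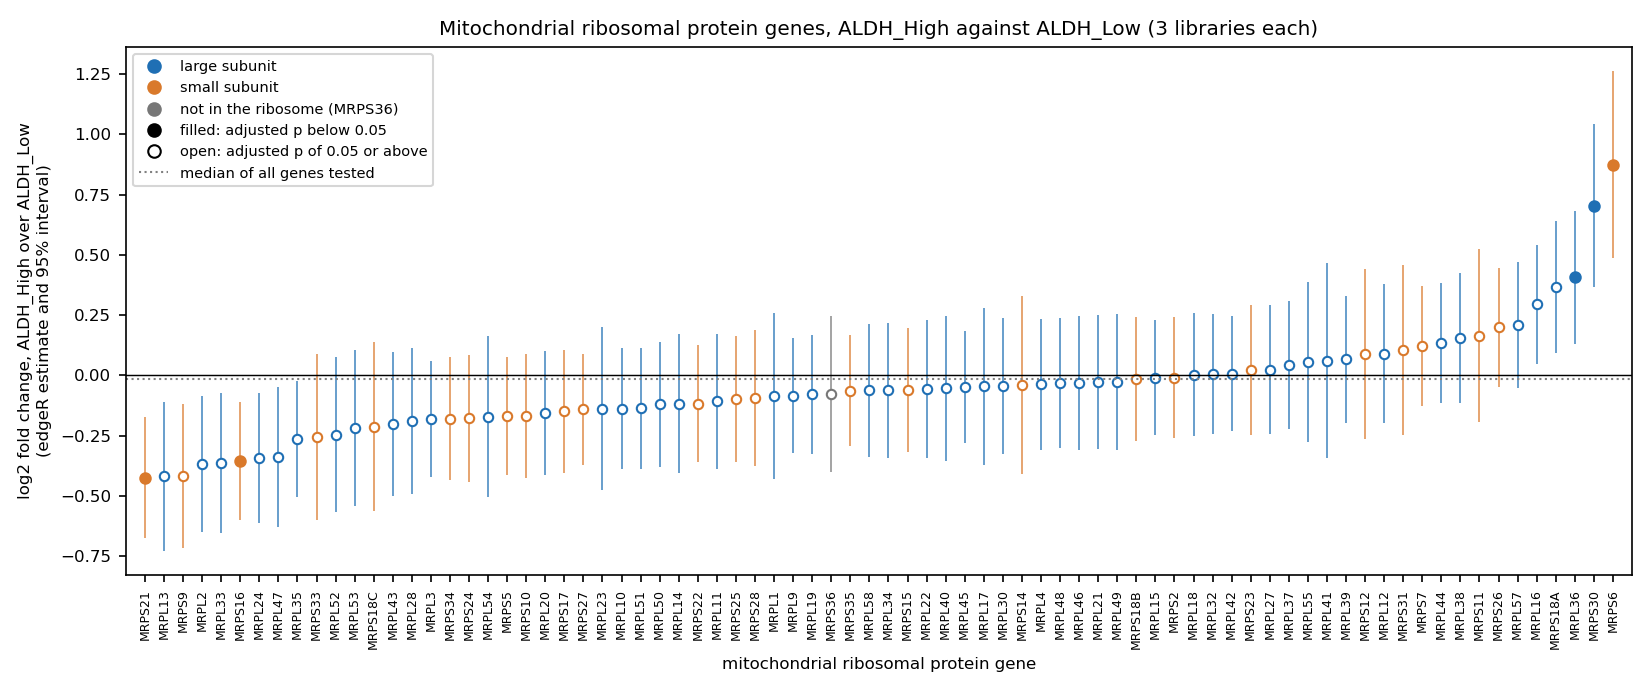
The log2 fold change of each of the 78 members (ALDH_High over ALDH_Low, edgeR estimate with its 95% interval), ordered from lowest to highest, with large-subunit members in blue, small-subunit members in orange and MRPS36 in grey. Filled points mark the 5 members past the threshold: MRPS21 and MRPS16 on the left, and MRPL36, MRPS30 and MRPS6 at the right end.

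MRPS6 encodes bS6m, a small-subunit protein with a bacterial counterpart, and lies on the forward strand at chr21:34073224-34143034. Its level was 147, 105 and 112 TPM in ALDH_High libraries 1 to 3 and 72.3, 58.8 and 62.5 TPM in ALDH_Low libraries 1 to 3. The lowest ALDH_High library stood above the highest ALDH_Low library. In edgeR's test the log2 fold change was 0.87 (SE 0.17, 95% interval 0.49 to 1.26, a 1.83-fold difference) with an adjusted p of 0.0056. It was the largest difference among the 78 members. SLC5A3, which encodes a myo-inositol transporter, starts within MRPS6 on the same strand and shares 265 exon bases with it, so reads from those bases can belong to either gene and the MRPS6 value is uncertain to that extent. SLC5A3 itself was at 11.9, 13.4 and 13.1 TPM in ALDH_High and 6.41, 5.12 and 3.53 TPM in ALDH_Low, and edgeR gave a log2 fold change of 1.31 (SE 0.17, adjusted p 0.000557). The part of shared bases in the MRPS6 difference was not tested.

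MRPS30 encodes mL65, a mitochondria-specific protein of the large subunit, at chr5:44808947-44820428 on the forward strand. TPM values were 110.1, 82.5 and 97.8 in ALDH_High and 61.5, 53.0 and 58.5 in ALDH_Low. No library of one group reached the range of the other. The edgeR log2 fold change was 0.70 (SE 0.15, interval 0.37 to 1.04, 1.63-fold) with an adjusted p of 0.0085. The long noncoding RNA MRPS30-DT runs the other way from a start close by, and with 17 to 98 counts per library its edgeR log2 fold change was 0.94 (SE 0.51, adjusted p 0.238).

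MRPL36 encodes bL36m, a very small large-subunit protein with a bacterial counterpart, at chr5:1798385-1801366 on the reverse strand. It measured 118, 129.7 and 113 TPM in ALDH_High and 86.1, 84.9 and 92.5 TPM in ALDH_Low, again without overlap. The difference was 0.41 on the log2 scale (edgeR, SE 0.12, interval 0.13 to 0.68, 1.32-fold, adjusted p 0.0426). NDUFS6, a complex I subunit whose gene starts 41 bases from MRPL36 on the opposite strand, had 139, 156 and 137 TPM against 116, 127 and 135 TPM and did not pass (edgeR, log2 fold change 0.14, SE 0.12, adjusted p 0.471).

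The lower members were both small-subunit proteins with bacterial counterparts. MRPS21 (bS21m, chr1:150293861-150308979, forward strand) had 76.1, 88.8 and 81.3 TPM in ALDH_High and 102, 103 and 113 TPM in ALDH_Low. All ALDH_High libraries lay below all ALDH_Low libraries, and edgeR gave a log2 fold change of -0.42 (SE 0.11, interval -0.68 to -0.17, adjusted p 0.0241), which is 1.34-fold more in ALDH_Low. MRPS16 (bS16m, chr10:73248843-73252693, reverse strand), which is needed for a stable small subunit and is mutated in a mitochondrial disease, had 99.1, 100.9 and 93.7 TPM in ALDH_High and 119, 127 and 117 TPM in ALDH_Low. These ranges did not meet either, with an edgeR log2 fold change of -0.35 (SE 0.11, interval -0.60 to -0.11, adjusted p 0.0446), 1.28-fold more in ALDH_Low. MRPS16 shares 395 exon bases with an antisense RNA, DNAJC9-AS1, which had 3 to 13 counts per library. Another entry of that name, which starts just beyond MRPS16, had 19 to 72 counts per library and did not pass (edgeR log2 fold change -1.001, SE 0.32, adjusted p 0.0519).

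MRPS6 and MRPS30 kept an adjusted p below 0.05 under all 15 alternative analyses run for each gene, with log2 fold changes from 0.66 to 1.002 and from 0.55 to 0.84. The other 3 calls did not hold throughout: MRPL36 passed in 8 of the 15, MRPS21 in 10 and MRPS16 in 7. Limma without a TPM filter lost MRPS21 and MRPS16, the replicate number as a block lost MRPL36 and MRPS16, upper-quartile scaling lost MRPL36, and no filter on low counts lost MRPS16. Single libraries left out also ended these calls. For MRPL36 the edgeR adjusted p was 0.0506 without ALDH_High library 1, 0.127 without ALDH_High 2, 0.118 without ALDH_Low 1, 0.152 without ALDH_Low 2 and 0.0533 without ALDH_Low 3. MRPS21 had 0.0629 and 0.0979 without ALDH_High 2 or 3, and 0.0555 and 0.0895 without ALDH_Low 2 or 3 (edgeR adjusted p). For MRPS16 the edgeR adjusted p without ALDH_High 2 or 3 was 0.148 and 0.182, and without ALDH_Low 1, 2 or 3 it was 0.0994, 0.144 and 0.1098.

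**Figure D2:**
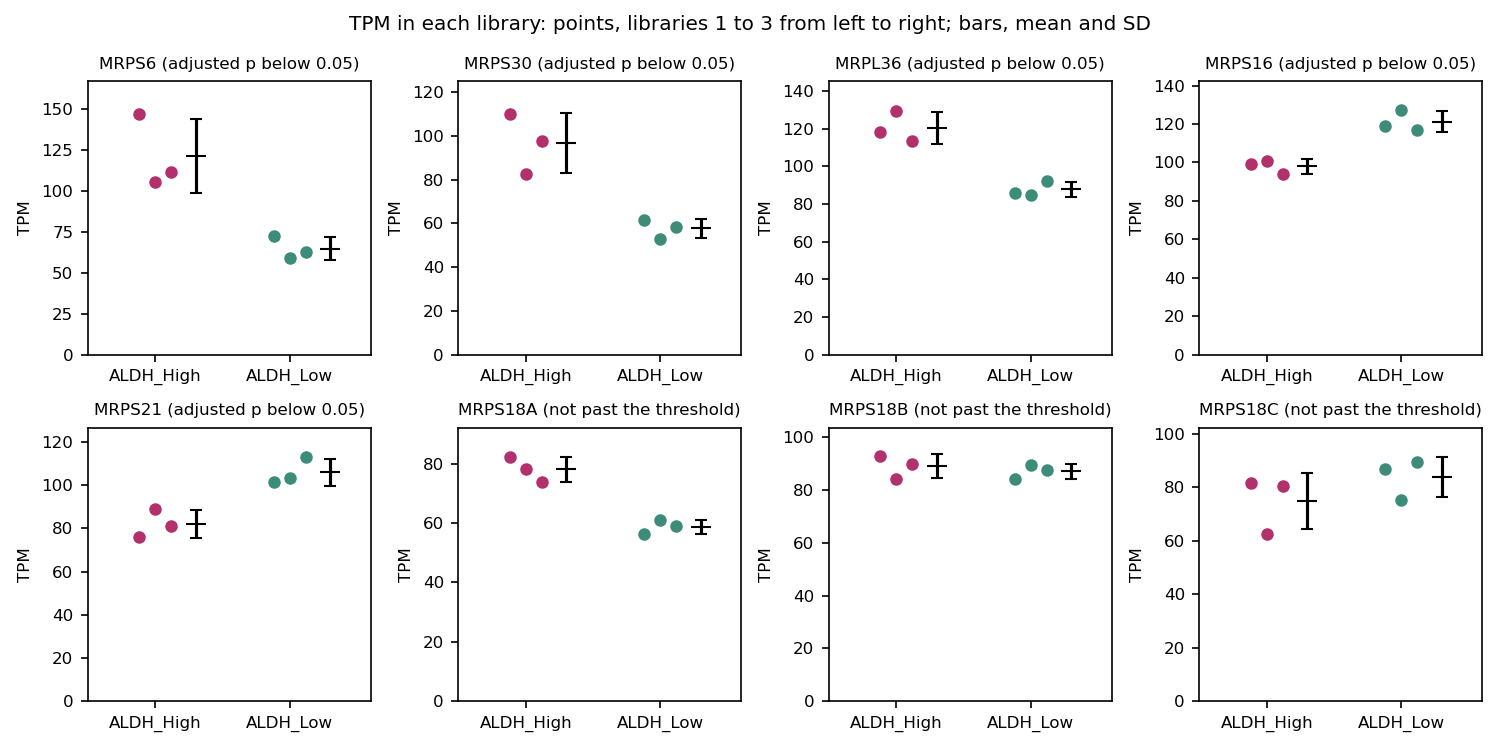
TPM in each library for the 5 members past the threshold and the 3 MRPS18 paralogs, with libraries 1 to 3 of each group from left to right and bars for the mean and SD. The groups do not overlap for MRPS6, MRPS30, MRPL36, MRPS16, MRPS21 and MRPS18A, and they do for MRPS18B and MRPS18C.

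The 3 MRPS18 paralogs descend from 1 bacterial protein and occupy different places in the ribosome. By the names of their products, MRPS18A and MRPS18B are grouped here with the members specific to mitochondria. MRPS18A (mL66, large subunit) had 82.3, 78.3 and 73.9 TPM in ALDH_High and 56.3, 60.9 and 59.2 TPM in ALDH_Low. Its groups were apart, yet its edgeR adjusted p was 0.0626 (log2 fold change 0.37, SE 0.12), and it was 0.0497 without ALDH_High library 3. It passed in 5 of the 15 alternatives, among them DESeq2 and all 3 limma fits, with an adjusted p as low as 0.0181. MRPS18B (mS40, small subunit) had 93.1, 84.1 and 90.04 TPM against 84.1, 89.7 and 87.5 TPM, with the groups interleaved and an edgeR log2 fold change of -0.014 (interval -0.27 to 0.24). MRPS18C (bS18m, small subunit) had 81.5, 62.7 and 80.3 TPM against 86.8, 75.4 and 89.5 TPM, with overlapping groups and a log2 fold change of -0.21 (interval -0.56 to 0.14).

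By CPM, all 3 ALDH_High libraries lay on one side of all 3 ALDH_Low libraries for 21 of the 78 members (26.9%, against 37.8% of all genes tested). They were above for 8 members, with 18.6% of all genes in that class, and below for 13, with 19.1% of all genes. Those above were MRPS6, MRPS30, MRPL36, MRPS18A, MRPL16, MRPL57, MRPS26 and MRPL44, and those below were MRPS21, MRPL13, MRPS9, MRPL2, MRPL33, MRPS16, MRPL24, MRPL47, MRPL35, MRPL3, MRPS10, MRPS17 and MRPS27. By TPM the groups overlapped for MRPL44 among those above and for MRPL47, MRPL3, MRPS10, MRPS17 and MRPS27 among those below. Apart by TPM but not by CPM were MRPL12, MRPL38 and MRPS7 (ALDH_High above) and MRPL52, MRPS24 and MRPS34 (ALDH_High below). These members were named after their values were seen. MRPL2 (uL2m), a core protein beside the peptidyl transferase centre, had 64.4, 64.1 and 60.2 TPM in ALDH_High and 71.5, 84.1 and 79.9 TPM in ALDH_Low (edgeR log2 fold change -0.37, adjusted p 0.0677). MRPL24 and MRPL47 (uL24m and uL29m), which surround the tunnel exit, had edgeR log2 fold changes of -0.34 each, with adjusted p of 0.0744 and 0.0978. MRPL13 (uL13m) had 114, 109 and 96.3 TPM against 155, 124 and 134 TPM, with an edgeR log2 fold change of -0.42 and an adjusted p of 0.0596. MRPS9 (uS9m), whose bacterial counterpart contacts the tRNA, had 21.8, 29.3 and 28.3 TPM against 31.2, 33.9 and 36.6 TPM, with an edgeR log2 fold change of -0.42 and an adjusted p of 0.0533. In the other direction MRPL16 (uL16m), a late-joining large-subunit protein, had 106, 106 and 103 TPM against 84.8, 79.3 and 84.2 TPM (edgeR log2 fold change 0.29, adjusted p 0.0915). With edgeR as run here none of these 6 members passed the threshold, and each had an interval that did not include 0. Such an interval (unadjusted edgeR p below 0.05) was found for 14 of the 78 members, MRPL33 and MRPL35 among them. That is 17.95%, a smaller share than the 32.3% of all genes tested. Each of the 6 passed in some of the 15 alternatives: MRPL13 in 4, MRPL16 in 3 (the limma fits), MRPS9 and MRPL2 in 2 each, and MRPL24 and MRPL47 in 1 each.

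Both subunits held mostly small negative values, and the sign of the median depended on the processing. Among the 51 large-subunit members 2 passed, both higher, 16 had a log2 fold change above 0, and the median was -0.053. Among the 26 small-subunit members 3 passed, 1 higher and 2 lower, 7 were above 0, and the median was -0.096. The median over all 78 was -0.061, with 23 above 0 and 55 below, beside a median of -0.013 over all genes tested. With the dependence on GC content and length subtracted, the members' median was 0.048. The members with bacterial counterparts (46) had 4 calls (8.70%), 11 values above 0 and a median of -0.084. Of these 46, 15 had separated groups (32.6%), with 3 higher and 12 lower in ALDH_High. Those specific to mitochondria (31) had 1 call (3.23%), 12 values above 0 and a median of -0.032. Of these 31, 6 had separated groups (19.35%), with 5 higher and 1 lower. Over all genes tested 20.6% were called and 37.8% were separated, 18.6% higher and 19.1% lower. No difference between subunits or between these origins was tested. The members closest to 0 were MRPL18 (uL18m), MRPL32 (bL32m) and MRPL42 (mL42), at 0.0037, 0.0068 and 0.0081 on the log2 scale. The stalk proteins, which recruit translation factors to the large subunit, had log2 fold changes of -0.14 for MRPL10, -0.11 for MRPL11 and 0.090 for MRPL12, with intervals that all crossed 0.

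In abundance the members spanned a wide range. Mean TPM over the 6 libraries ran from 20.2 for MRPL57 (mL63) to 383 for MRPL51 (mL51), an 18.9-fold range, although the assembled ribosome holds nearly all of them in equal number. The most abundant after MRPL51 were MRPL20 (354 TPM), which encodes bL20m, and MRPL12 (323 TPM), which encodes the stalk protein bL12m. The least abundant after MRPL57 were MRPS31 (24.6 TPM) and MRPS10 (24.8 TPM), both of the small subunit. MRPL51 and MRPL20 had SDs that brought the groups together, at 372 ± 20.9 against 394 ± 32.4 TPM and at 342 ± 10.4 against 367 ± 31.7 TPM (SD, n = 3 each). All 78 members exceeded the median tested gene, which was at 9.72 TPM, and their own median was 96.2 TPM. Of the 10 most abundant members in each group 9 were shared, and of the 10 least abundant all 10 were. The median coefficient of variation among libraries of a group was 7.64% in ALDH_High and 5.45% in ALDH_Low.

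**Figure D3:**
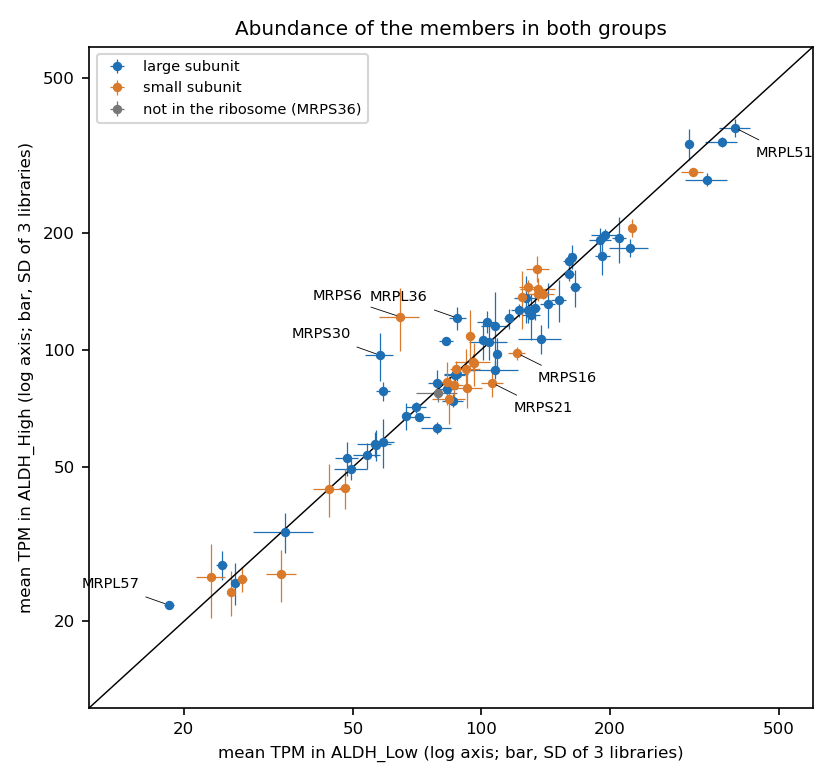
Mean TPM of each member in ALDH_Low (horizontal) and ALDH_High (vertical), both on log axes, with bars for the SD over 3 libraries and a diagonal line of equal level. Most members lie along the line from MRPL57 to MRPL51, with MRPS6, MRPS30 and MRPL36 above it and MRPS21 and MRPS16 below.

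The summed level of the members was close in the groups. It was 9098, 8876 and 8715 TPM in ALDH_High and 8790, 8976 and 9352 TPM in ALDH_Low, so the groups overlapped. The ratio of summed large-subunit to small-subunit TPM was 2.34 ± 0.035 in ALDH_High and 2.39 ± 0.017 in ALDH_Low (SD, n = 3 each), with ALDH_High library 1 (2.38) above ALDH_Low library 2 (2.37). Single libraries moved many members together. ALDH_High library 1 lay above the mean of the other 2 ALDH_High libraries for 59 of 78 members, with a median difference of 0.20 on the log2 CPM scale. Over the protein-coding genes tested with a mean of at least 5 CPM that median difference was 0.041. Over the members the difference correlated with GC content (r = 0.53 across genes of 1 library, which are not independent). Over the 10535 of those protein-coding genes with an annotated GC content r was 0.45. For ALDH_High library 3 the same r was -0.52 over the members and -0.46 over those protein-coding genes. ALDH_Low library 3 lay above its group mates for 72 members and was the highest of all 6 libraries for 42. ALDH_High library 3 was the lowest of all 6 for 37. The number of members past the threshold was 10 without ALDH_High library 1, and it was 2 without ALDH_High library 2, without ALDH_Low library 2 or without ALDH_Low library 3. The share of all genes called was 23.7% without ALDH_High library 1 and 14.4%, 14.03% and 14.2% without the other 3.

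Some chromosomes had medians away from 0. Genes of chromosome 13 with a mean of at least 5 CPM had a median log2 fold change of 0.37, those of chromosome 20 of 0.28, those of chromosome 21 of 0.11 (58.5% of them above 0), those of chromosome 22 of 0.080 (60.7% above 0) and those of chromosome 18 of -0.22. MRPL57 (0.21) and MRPS31 (0.11) lie on chromosome 13, MRPS26 (0.20) on chromosome 20, and MRPS6 (0.87) and MRPL39 (0.067) on chromosome 21. No member lies on chromosome 18. How far these chromosome-wide values enter the values of single members was not tested.

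A head-to-head neighbour, meaning a protein-coding gene on the other strand that starts within 1000 bases and points away, was found for 17 of 78 members (21.8%) and for 1457 of 13709 protein-coding genes tested (10.6%). MRPS11 and MRPL46 share such a start region with each other. Of the 16 neighbours that were tested 1 passed, where 20.6% of all genes tested did. This was SKA3, a kinetochore gene beside MRPL57 on chromosome 13, with an edgeR log2 fold change of 0.91 (SE 0.11, adjusted p 0.000269). MRPL57 was at 22.5, 21.99 and 21.7 TPM against 19.0, 18.2 and 18.1 TPM and did not pass (edgeR log2 fold change 0.21, SE 0.12, adjusted p 0.254).

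The start regions of the members were searched for 6 motifs on both strands, in RefSeq windows from 250 bases before to 50 bases after the start. Such windows were found for 69 of 78 members, and 1 of these held different motifs that overlapped. The ETS motif CCGGAAG was in 42.0% of them and in 14.4% of the windows of 15345 protein-coding genes, and the YY1 motif AAGATGGCG in 18.8% and 2.80%. The NRF1 motif GCATGCGC was in 8.70% against 4.25%. For GGGCGG the shares were 60.9% and 59.2%, for the E-box CACGTG 8.70% and 8.89%, and for CCAAT 29.0% and 36.6%. Both lower members, MRPS21 and MRPS16, held CCGGAAG, and MRPS30 and MRPL36 held AAGATGGCG. The RefSeq start of MRPL36 lies 1529 bases from its GENCODE start, so its window is not the region shared with NDUFS6. The median log2 fold change was -0.15 over the 29 members with CCGGAAG and -0.038 over those without, the widest gap among the 6 motifs. With and without AAGATGGCG it was -0.014 and -0.061, and for CCAAT it was -0.016 and -0.061. The E-box gave -0.037 and -0.061, the NRF1 motif -0.051 and -0.059, and GGGCGG -0.056 and -0.057. None of these contrasts was tested. A match describes letters in this window and not a bound site. Among the regulators, NRF1, YY1 and the ETS factor GABPA did not pass. Their edgeR log2 fold changes were -0.090 for NRF1 (adjusted p 0.677) and 0.28 for GABPA (adjusted p 0.264). For YY1 it was -0.0015, with a sign that depended on the setting (adjusted p 0.994). MYC, from the same list of regulators, did pass (edgeR log2 fold change -0.86, adjusted p 0.00374). The values of SP1 are not given here, and no link between a regulator and a motif was tested.

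The mitochondrial ribosome has 5 further subunits that carry other symbols. None of them passed with edgeR, with DESeq2 or with limma, and none had an unadjusted edgeR p below 0.05. Their edgeR log2 fold changes were 0.23 for PTCD3 (mS39), 0.0037 for DAP3 (mS29), -0.074 for CHCHD1 (mS37), -0.069 for AURKAIP1 (mS38) and -0.15 for GADD45GIP1 (mL64). DAP3, which binds GTP, stood at 217 ± 0.711 CPM in the ALDH_High libraries and at 217 ± 17.3 CPM in the others (SD, n = 3 each).

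Among genes that serve the ribosome, a few passed in either direction. Of 27 assembly factors 2 were higher and 1 lower, with a median log2 fold change of -0.0041. That is 11.1% called, a smaller share than the 20.6% of all genes tested (10.8% higher and 9.83% lower). RPUSD3, a pseudouridine synthase, had 89.3 ± 13.1 against 64.8 ± 5.75 CPM (SD, n = 3 each). TFB1M, which dimethylates the small-subunit RNA, had 19.4 ± 2.04 against 13.9 ± 0.959 CPM (SD, n = 3 each). By edgeR their log2 fold changes were 0.46 (adjusted p 0.0335) and 0.48 (adjusted p 0.0371). RBFA, a small-subunit assembly factor encoded on chromosome 18, was lower by edgeR, at -0.57 (SE 0.13, adjusted p 0.00948). The edgeR adjusted p of TFB1M lay between 0.05001 and 0.114 with any 1 library left out, and that of RPUSD3 was 0.0577 without ALDH_High library 2 and 0.0892, 0.132 and 0.0505 without ALDH_Low library 1, 2 or 3.

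None of 17 translation factors passed with edgeR, DESeq2 or limma, and none had an unadjusted edgeR p below 0.05 (median log2 fold change 0.069). Of 17 aminoacyl-tRNA synthetases, which charge mitochondrial tRNAs, only AARS2 passed (5.88%, against 20.6% of all genes tested). It was at 43.2 ± 3.31 against 33.1 ± 1.83 CPM (SD, n = 3 each), with an edgeR log2 fold change of 0.38 (adjusted p 0.0416). Its edgeR adjusted p rose to 0.132 without ALDH_High library 2 and to 0.116, 0.0799 and 0.123 without ALDH_Low library 1, 2 or 3. AARS2 passed in 5 of the 15 alternatives, while HARS2 was the synthetase called with upper-quartile scaling. Another list held 17 genes that copy, maintain or transcribe mitochondrial DNA or process its RNA. Of these, 2 were higher by edgeR (11.8%, with 10.8% of all genes called higher). They were MTERF1, a factor that binds mitochondrial DNA, at 0.74 (adjusted p 0.0108), and MGME1, a mitochondrial DNA exonuclease encoded on chromosome 20, at 0.59 (adjusted p 0.00638). Of 9 tested regulators 1 was lower (11.1%, with 9.83% of all genes called lower), MYC, a transcription factor that drives growth. MYC was at 27.4, 27.6 and 28.0 TPM in ALDH_High and 57.3, 37.6 and 50.9 TPM in ALDH_Low, without overlap (edgeR log2 fold change -0.86, SE 0.16, adjusted p 0.00374).

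The mRNAs that these ribosomes translate lay lower in ALDH_High. All 13 mitochondrial DNA-encoded mRNAs had a negative log2 fold change, with a median of -0.63. EdgeR's test was passed by 7 of the 13 (53.85%, with 9.83% of all genes called lower). The summed level of all 13 was 32010 ± 1996 TPM in ALDH_High and 46510 ± 10390 TPM in ALDH_Low (SD, n = 3 each), 1.45-fold more in ALDH_Low. MT-ND4 and MT-ND1, subunits of complex I, had edgeR log2 fold changes of -0.76 (SE 0.15, adjusted p 0.00562) and -0.70 (SE 0.15, adjusted p 0.00944). The number that passed was 2 without ALDH_High library 2 or 3 and without ALDH_Low library 1, and 4 without ALDH_Low library 3, while the median stayed between -0.78 and -0.39 with any 1 library left out. ALDH_Low library 1 held the highest sum, 58300 TPM, beside 38670 and 42550 TPM in its group mates.

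**Figure D4:**
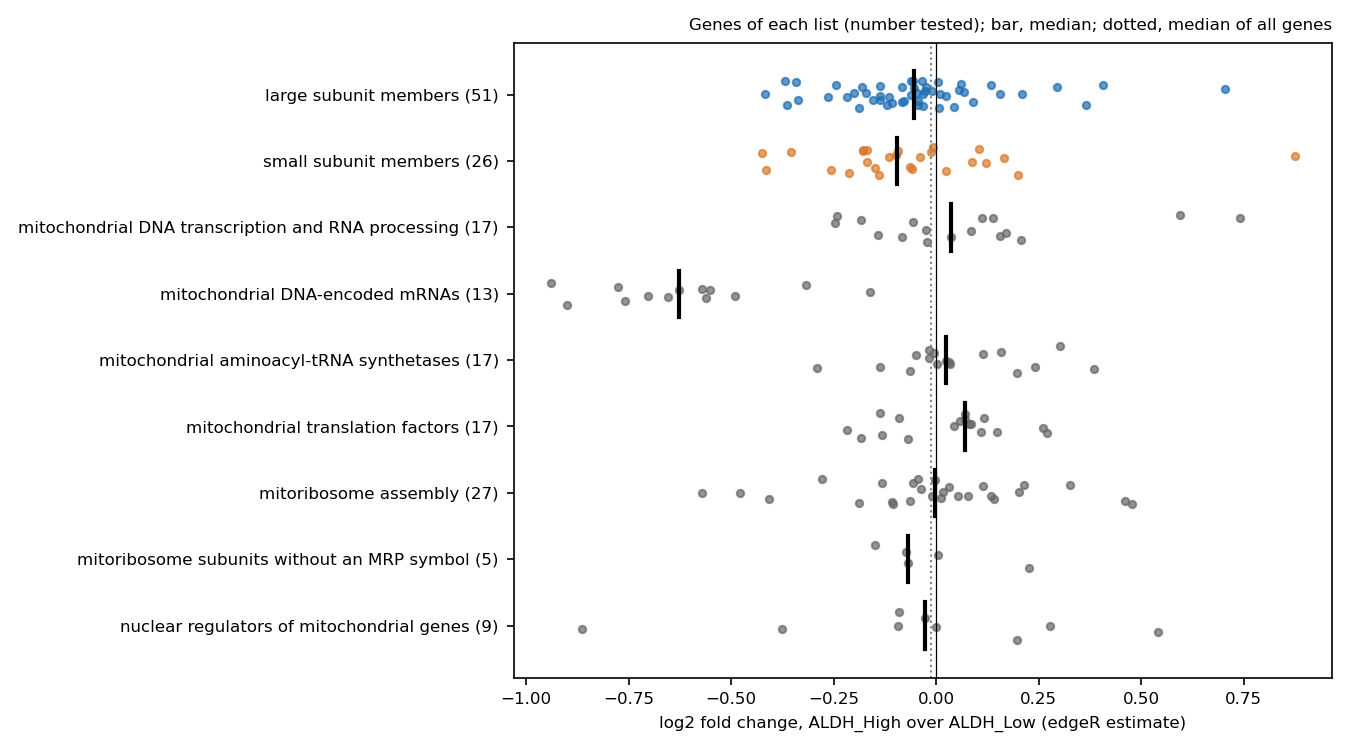
The log2 fold change (ALDH_High over ALDH_Low, edgeR estimate) of each gene of the large and small subunit and of 7 related lists, with the number tested in brackets, black bars for the medians and a dotted line for the median of all genes tested. The member lists centre near 0, and all 13 mitochondrial DNA-encoded mRNAs lie below 0.

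Other protein-coding groups had small medians as well. Of 78 tested cytosolic ribosomal protein genes 2 passed (2.56%), both lower, with a median of -0.070. Of 93 tested nuclear genes of the respiratory chain 4 passed (4.30%), all lower, with a median of -0.095, beside 9.83% of all genes called lower. One of these 4, named after its values were seen, was COX7B2, with 0, 1 and 3 counts in ALDH_High and 66, 22 and 31 in ALDH_Low. The members' median of -0.061 lay beside both, and no difference between these lists was tested. By their names in the deposited table, a further 77 genes resemble the members but are pseudogenes (75) or the RNAs MRPL23-AS1 and MRPS30-DT. They held 0.181% to 0.272% of the members' counts, and 60 of them had no count in any library. Named otherwise in that table, MRPL20-AS1 overlaps MRPL20 on the other strand and had 336 to 639 counts per library (edgeR log2 fold change -0.39, adjusted p 0.0653). In the annotation 40 of 78 members share exon bases with another gene, 15 of them with one on the same strand. The strand setting of the counting is not given in the sources used here, so antisense reads may be among the counts of such members.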

How the data were processed

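RNA sequencing was analysed in 6 libraries of sorted A375 cells (3 ALDH_High, 3 ALDH_Low), grouped by the labels' treatment field. Libraries were made with a stranded mRNA kit, per the labels' protocols. The submitters' processing notes list FastQC 0.11.3, STAR 2.5.1b, HTSeq 0.6.1, DESeq2 and the build GRCh38, with no roles; the annotation release and the strand setting of the counting are not given in the sources used here. The authors deposited gene counts that were treated as estimated counts rounded to whole numbers, since 133 to 177 genes per library had a count of 0 beside a TPM above 0. The authors also deposited TPM values; TPM is used here to compare levels between genes.

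Genes were kept with filterByExpr, scaled with TMM and tested with edgeR 4.0.16 (glmQLFTest, two-sided, no replicate term, R 4.3.3), with Benjamini-Hochberg adjustment over 17047 genes. Intervals are 95% intervals from the same model. "Not overlapping" compares TMM-scaled CPM. An exact permutation test of 3 against 3 cannot go below p = 0.1, so none is cited. Positions, overlaps, GC content and lengths were taken from GENCODE 44 (GRCh38), in which 99.06% of genes tested were found by their Ensembl identifier. The test was also run on simulated counts, drawn independently for each gene and library with the same dispersion for every gene. They hold none of the shifts of single libraries described above, so that run does not cover them.

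The members and lists were chosen with earlier results of these data known. Genes named by rule are the members past the threshold, the 3 most and 3 least abundant members, the 5 with the largest and 3 with the smallest change, the MRPS18 paralogs, the subunits without an MRP symbol, and up to 2 genes per direction in each related list; other genes were chosen after their values were seen. Alternatives were DESeq2 size factors, upper-quartile factors, 2 other count filters, a replicate block, each library left out, DESeq2 1.42.0, limma 3.58.1 on log2(TPM + 1) and log2(TPM + 0.1), a threshold of 0.01, and a correction for GC content and length.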

Additional observations from a re-analysis of the deposited data

How the results depend on the processing

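The number of members past the threshold (5) became 9 with upper-quartile factors (11.5%, against 20.97% of all genes), which moved the median of all genes tested to -0.062 from -0.013. The number became 2 at an adjusted p below 0.01. With 1 library left out it ran from 2 to 10 (2.56% to 12.8%, against 14.03% to 23.7% of all genes). In the limma fits 16.15%, 16.22% and, without a TPM filter, 5.76% of all genes passed. Shares of all genes at 0.01, and by direction in each setting, are not given here. Members higher (3) became 5 in each of the 3 limma fits on log2 TPM and ran from 2 to 4 with 1 library left out. Members lower (2) became 7 with upper-quartile factors, 0 with limma without a TPM filter and 0 at an adjusted p below 0.01, and ran from 0 to 8 with 1 library left out. The members' median (-0.06) became 0.048 after a trend on GC content and length was removed, and the other settings kept it between -0.11 and -0.014. It was -0.014 in each limma fit and without ALDH_High library 3. There the median of all genes was 0.035 and 0.038 in the limma fits with a TPM filter, -0.00064 without that filter and -0.0020 without ALDH_High library 3. Without the members on chromosomes 13, 20 and 21 (none is on 18), a setting chosen after the data were seen, the members' median was -0.078. Genes past the threshold overall (3513) became 2006 with limma without a TPM filter. The cause of these shifts was not tested.

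With the replicate block 5 members passed, 3 of them among the 5 named above (MRPS6, MRPS30 and MRPS21, with MRPL13 and MRPS9 in place of MRPL36 and MRPS16), and 3748 genes passed in all. Deviations of same-numbered libraries correlated at 0.15, 0.076 and 0.108, each higher than with any other number, but not all above 0.1, and pairing was not assumed. With the replicate block AARS2 was lost, leaving 0 synthetases, and MRPL18 was at -0.0013.

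In the related lists, the genes for upkeep and transcription of mitochondrial DNA and for RNA processing (2) gave 1 with limma without a TPM filter. They gave 2 to 4 with 1 library left out. The mitochondrial DNA-encoded mRNAs (7) gave 11 with no filter on low counts, 2 and 2 with limma on log2(TPM + 1) and log2(TPM + 0.1), 0 with limma without a TPM filter, and 2 to 7 with 1 library left out. Synthetases (1) gave 0 with no filter on low counts, 2 with the DESeq2 Wald test and 0 to 1 with 1 library left out; their median was -0.0247 with upper-quartile factors, 0.07195 in both limma fits on log2(TPM + 1), 0.076 on log2(TPM + 0.1), and 0.028 to 0.058 with 1 library left out. The translation factors' median was 0.020 with upper-quartile factors, 0.11 in each limma fit, and 0.023 to 0.11 with 1 library left out. For assembly factors it was -0.053 with upper-quartile factors, 0.044 in both limma fits on log2(TPM + 1), 0.046 on log2(TPM + 0.1), and -0.014 to 0.046 with 1 library left out, with 1 to 3 genes past the threshold. The subunits without an MRP symbol had a median of -0.078 to 0.019, and 1 to 2 regulators passed, with 1 library left out.

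Among the genes followed through the alternatives, those with reversed signs all had an edgeR log2 fold change within 0.1 of 0. With upper-quartile factors DAP3, MRPL18, MRPL32 and MRPL42 were at -0.046, -0.046, -0.043 and -0.041. MRPS18B was at 0.0065 with the DESeq2 Wald test, and 0.032 in each limma fit. YY1 (-0.0015) was at 0.0067 with DESeq2 size factors, 0.0083 with no filter on low counts, 0.0035 with the replicate block, 0.018 with the DESeq2 Wald test, 0.052 in both limma fits on log2(TPM + 1) and 0.053 on log2(TPM + 0.1). With 1 library left out the log2 fold changes ran from -0.22 to 0.048 for AURKAIP1, -0.12 to 0.00197 for CHCHD1, -0.034 to 0.065 for DAP3, -0.035 to 0.18 for MRPL12, -0.0502 to 0.10 for MRPL18, -0.047 to 0.063 for MRPL32, -0.021 to 0.054 for MRPL42, -0.088 to 0.061 for MRPS18B and -0.077 to 0.089 for YY1.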
